A study of Mus musculus with 19 samples.

Results

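CD4+ T cells that had responded to immunization without becoming follicular helper cells were set against naive CD4+ T cells, the cells that have not yet met antigen. The comparison takes 5 of the 19 arrays of the study, namely 3 arrays labelled CXCR5lo PD-1lo and 2 labelled naive, chosen by their labels and not by any measured value. The CXCR5lo PD-1lo cells were donor cells from OT-II Bcl6yfp/+ mice, which carry a transgenic T cell receptor for ovalbumin and a reporter allele of Bcl6. They were moved into congenic hosts, which then received NP-OVA in CFA under the skin, and at day 7 the cells low in CXCR5 and PD-1 were sorted out of the draining lymph nodes. The naive cells came from spleens of mice that had not been immunized and were sorted as CD4+ and low in CD44. The strain is C57BL/6J on all arrays, and RNA was amplified with the same kit before hybridization to Affymetrix mouse expression arrays.

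Immunization, tissue of origin and, as far as the labels tell, the T cell receptor all differ between the groups and cannot be told apart. Transfer into hosts and the Bcl6 reporter allele are described above only for the CXCR5lo PD-1lo cells. By its sex-linked transcripts, naive array 2 also differs in sex from the other arrays of these groups. Whether the arrays within a group stand for different mice is not in the labels. The p-values therefore reflect only how far these arrays differ, and part of that may be technical. Fewer cells of a type and less RNA per cell cannot be told apart in sorted populations.

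A naive CD4+ T cell circulates between blood and lymphoid organs, held quiescent by factors such as FOXO1 and KLF2 and guided by the receptors CCR7 and S1PR1. On activation it divides and takes up a helper fate. Cells that induce BCL6 strongly become follicular helper T (Tfh) cells, which carry CXCR5 and PD-1 and enter B cell follicles, while cells with little of either leave as effectors, for which T-bet (gene Tbx21) is the best known regulator.

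Levels are log2 signals as deposited, on which about 2 is the floor, so a difference against a value near 2 depends on that floor. The arrays of the groups were not normalized together. The 75th percentile of the signal was 9.32 to 9.69 on the CXCR5lo PD-1lo arrays and 9.07 and 8.56 on naive arrays 1 and 2, and the median of all 9930 genes tested was higher by 0.46 in the CXCR5lo PD-1lo cells. After quantile normalization, which gives all arrays the same distribution, that median was -0.08. For this reason a gene is said here to have risen or fallen only where it was called (adjusted p under 0.05, limma) in the same direction on deposited and on quantile-normalized values. By this rule 605 genes rose and 154 fell.

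On deposited values alone 1028 genes (10.4% of those tested) were called higher and 157 (1.58%) lower. On quantile-normalized values 635 (6.39%) were higher and 737 (7.42%) lower, so the share of calls that are higher went from 86.8% to 46.3%. Called in both were 6.09% of genes higher and 1.55% lower, the background for the counts that follow, and no gene was called in opposite directions. Of the 605 genes that rose, 155 rose by at least 4 on the log2 scale of the deposited values, and of the 154 that fell, 21 fell by at least 4. In 148 of the genes that rose, the naive mean was under log2 4, near the floor.

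**Figure D1:**
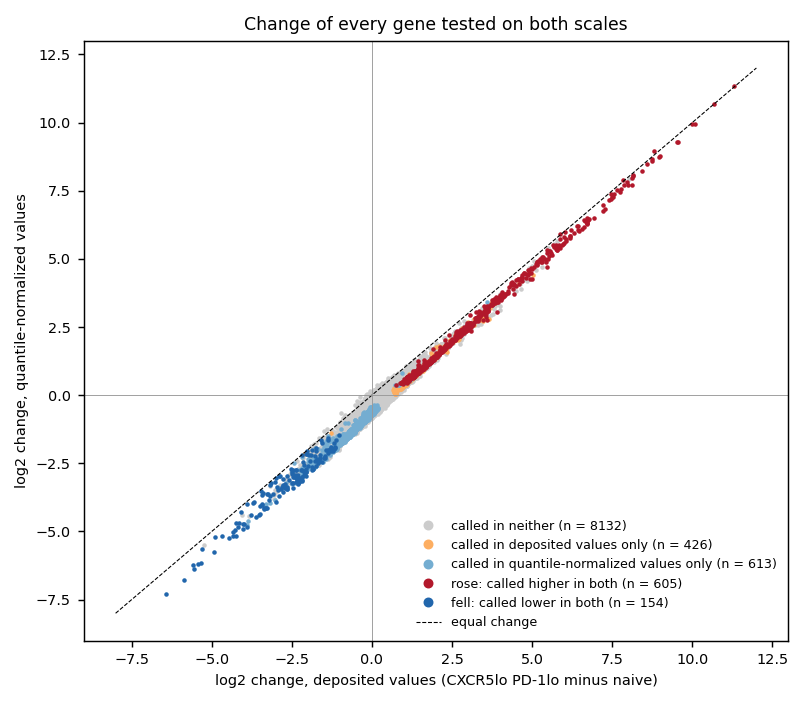
Each point is a gene, with its log2 change between CXCR5lo PD-1lo and naive cells in deposited values on the horizontal axis and in quantile-normalized values on the vertical axis, coloured by the values in which it was called. Nearly all points lie just under the dashed line of equal change, the shift of the whole table, and the 605 genes that rose and the 154 that fell lie toward the ends of the cloud.

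The genes used for sorting followed the labels. Cd4 was at 13.93, 13.96 and 13.97 in CXCR5lo PD-1lo arrays 1, 2 and 3 and at 13.87 and 13.29 in naive arrays 1 and 2 (log2 difference 0.37, SE 0.23, adjusted p = 0.29, and -0.02 after quantile normalization). Cd44, the hyaluronan receptor by which naive cells were sorted as low, was at 13.11, 13.01 and 12.19 against 9.35 and 8.96 and rose by 3.61 (SE 0.32, adjusted p = 6.8e-07). That rise restates the sort.

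Low CXCR5 and PD-1 are low only beside Tfh cells. Cxcr5, the follicle-homing receptor, was at 10.89, 9.91 and 9.45 in CXCR5lo PD-1lo cells and at the floor in naive cells (2.26 and 2.39), a rise of 7.76 (SE 0.34, adjusted p = 1.2e-10; 7.58 after quantile normalization). In the CXCR5hi PD-1hi Tfh cells of the same study, sorted by the Bcl6 reporter into YFP-positive and YFP-negative cells at day 7 or 10, its means were 13.88 and 13.70 (n = 4 each). Pdcd1, which encodes PD-1, was at 11.99, 10.84 and 10.60 against 5.52 and 6.43 and rose by 5.17 (SE 0.36, adjusted p = 4.1e-08), with a mean of 14.44 in YFP-positive cells. Both genes therefore lay between naive and Tfh levels. Bcl6 was at 13.02, 12.73 and 12.30 against 11.44 and 11.52. Its difference of 1.21 (SE 0.27, adjusted p = 0.0083) was 0.68 (SE 0.25, adjusted p = 0.085) after quantile normalization, so it is not counted as risen, and it lost its call on deposited values without naive replicate 1 (adjusted p = 0.061) or 2 (0.056).

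The effector markers stood at the opposite ends of the scale in the groups. S100a4, a calcium-binding protein of motile and memory T cells, was at 14.24, 13.49 and 12.90 in CXCR5lo PD-1lo cells and at 2.15 and 2.32 in naive cells. It rose by 11.31 (SE 0.58, adjusted p = 8.9e-10; 11.33 after quantile normalization), the largest of the 15 largest rises described here. Within each array, this placed S100a4 at percentiles 96.4 to 99.0 of all probe sets in CXCR5lo PD-1lo cells and at percentiles 18.2 and 37.1 in naive cells. Its neighbour S100a6, of the same family, was at 13.79, 12.92 and 12.04 against 2.34 and 2.15 and rose by 10.67 (SE 0.55, adjusted p = 9e-10).

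Bhlhe40, a transcription factor that supports effector cytokine production, was at 12.71, 11.65 and 12.14 against 2.33 and 2.06 (rise 9.98, SE 0.45, adjusted p = 1.8e-10). Nkg7, a protein of cytotoxic granule membranes, was at 11.09, 11.31 and 10.44 against 2.11 and 2.26 (rise 8.76, SE 0.24, adjusted p = 8e-13). Tbx21 was lower than these and less even, at 9.72, 8.39 and 7.01 against 2.13 and 2.24 (rise 6.19, SE 0.55, adjusted p = 7.6e-07). No CXCR5lo PD-1lo array overlapped a naive array for any of these genes. By itself that is a weak sign, as all 3 arrays lay above both naive arrays in 48% of genes tested on deposited values, and below both in 6.16%.

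The markers differ in what sets them apart from Tfh cells of the same study. Nkg7 had a mean of 1.98 in the YFP-positive Tfh group and of 2.08 in the YFP-negative group, and Tbx21 means of 2.16 and 2.40. Both are thus at the floor in naive cells and in Tfh cells alike. Bhlhe40, with means of 12.30 and 11.65, and S100a4, with 11.74 and 11.03, were high in Tfh cells too. The comparisons with naive and with Tfh cells share the CXCR5lo PD-1lo arrays, so they are given side by side only.

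The sequence upstream of some of these genes is shown to place them. S100a4 and S100a6 face the same way on chromosome 3 with starts 9.12 kb apart, and Nkg7 and Gzmb are granule genes at the floor in naive and Tfh cells. Each line gives the 250 bases before the start of the gene, 5′ to 3′ on the gene's strand, from RefSeq (GRCm38.p6).
S100a4, chr3:90603520-90603769, plus strand: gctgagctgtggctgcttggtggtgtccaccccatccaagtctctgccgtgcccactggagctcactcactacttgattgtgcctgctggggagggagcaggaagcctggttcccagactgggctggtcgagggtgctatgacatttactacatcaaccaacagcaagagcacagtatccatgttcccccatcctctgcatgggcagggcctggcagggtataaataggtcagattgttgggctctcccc
S100a6, chr3:90612644-90612893, plus strand: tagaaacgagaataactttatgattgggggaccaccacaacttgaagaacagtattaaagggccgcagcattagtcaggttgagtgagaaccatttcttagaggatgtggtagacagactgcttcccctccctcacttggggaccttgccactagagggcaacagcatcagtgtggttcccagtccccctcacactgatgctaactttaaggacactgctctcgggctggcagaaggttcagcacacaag
Nkg7, chr7:43436888-43437137, plus strand: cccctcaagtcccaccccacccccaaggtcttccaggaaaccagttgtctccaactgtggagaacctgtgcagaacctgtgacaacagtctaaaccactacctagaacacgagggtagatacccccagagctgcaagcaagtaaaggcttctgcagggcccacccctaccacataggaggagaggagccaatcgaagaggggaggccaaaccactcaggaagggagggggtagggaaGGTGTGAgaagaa
Gzmb, chr14:56262335-56262584, minus strand: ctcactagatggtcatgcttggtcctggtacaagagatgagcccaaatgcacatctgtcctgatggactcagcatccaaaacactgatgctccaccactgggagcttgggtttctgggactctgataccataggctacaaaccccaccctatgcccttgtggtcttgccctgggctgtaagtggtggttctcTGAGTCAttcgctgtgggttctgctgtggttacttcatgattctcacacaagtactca
Capitals mark matches to 3 motifs that were searched on both strands. They were the T-box GGTGTGA, the letters T-bet is known to bind, the AP-1 site TGANTCA, bound by BATF and JUN proteins, and the class B E-box CACGTG, bound by BHLHE40. The Nkg7 window holds a T-box starting 13 bases before the start (-13) and the Gzmb window an AP-1 site starting at -58, while the windows of S100a4 and S100a6 hold none of the 3. Of all 32851 windows of this length 3.33% hold the T-box, 6.75% the AP-1 site and 6.02% the E-box. Over the windows of genes that rose the shares were 3.16%, 6.8% and 5.85%, and over those of genes that fell 1.86%, 5.59% and 4.97%. For all tested genes they were 2.71%, 3.98% and 8.52%. A match is a string of letters and not a measured binding site.

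Among the 15 described genes with the largest rise, most were near the floor in naive cells. Gcnt1, a glycosyltransferase that builds selectin ligands, was at 13.11, 12.54 and 11.79 against 2.33 and 2.49 (rise 10.07). Tox2, a nuclear factor of helper T cells, rose by 9.55 and the interleukin 1 receptor Il1r1 by 9.52. Gzma and Gzmb, serine proteases of killer cell granules, were at 12.48, 12.79 and 10.58 and at 10.26, 11.03 and 9.57. In naive cells Gzma was at 4.0 and 2.30 and Gzmb at 2.12 and 2.17, and the genes rose by 8.80 and 8.14. Gzmb was at 2.10 in both Tfh groups, whereas Gzma had a YFP-positive mean of 8.58 and a YFP-negative mean of 12.17. The chemokine receptors Ccr2 (rise 8.73) and Cxcr6 (8.42), which steer cells to inflamed tissue, and the antiviral membrane protein Ifitm1 (8.59) were of the same order. The others were the adaptor gene Tspoap1 (8.99), the actin-associated Synpo (8.96) and the gap junction gene Gjb2 (8.16). All 15 were called on both scales, and in each run that left out 1 array.

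**Figure D2:**
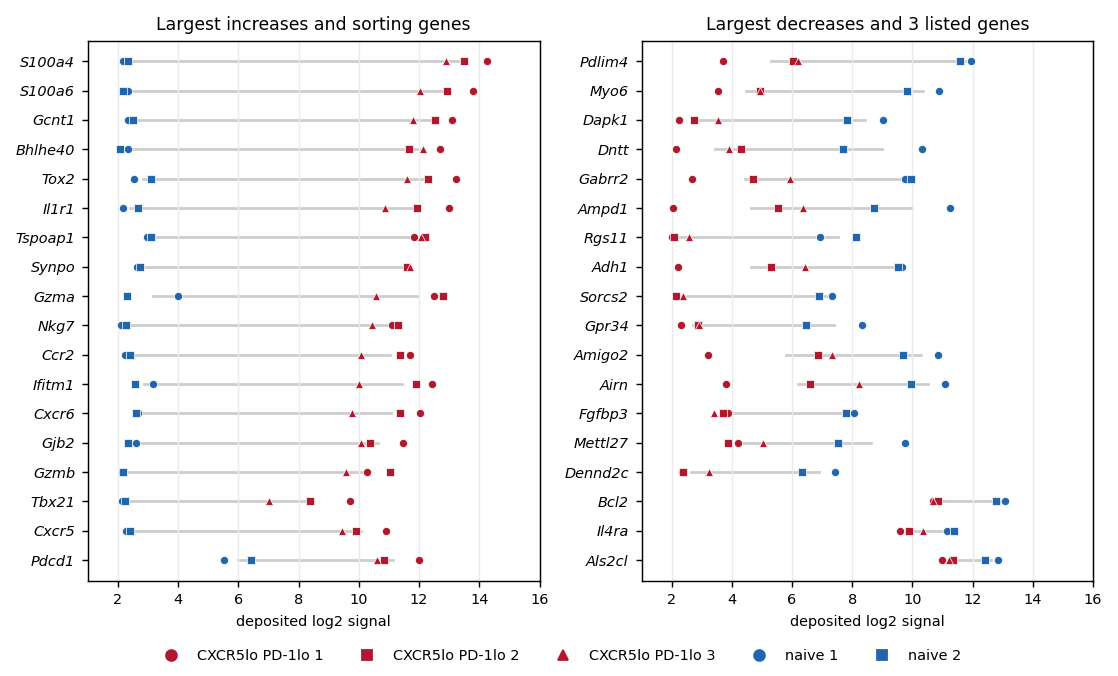
Each row is a gene and each symbol 1 array, placed by its deposited log2 signal, with CXCR5lo PD-1lo arrays in red, naive arrays in blue and a grey line joining the group means. In the left panel the naive arrays of most genes sit together near 2 while the CXCR5lo PD-1lo arrays lie between 7 and 15. In the right panel, which adds Bcl2, Il4ra and Als2cl, every CXCR5lo PD-1lo array lies below both naive arrays. For the genes with the largest decreases, the rule by which they were chosen required this.

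Of the Th1 and cytotoxic effector genes, 15 of the 26 tested rose and none fell (list median 2.19 on deposited and 1.60 on quantile-normalized values, against 0.46 and -0.08 for all genes). Ifng, the Th1 cytokine, was at 6.15, 7.20 and 8.11 against 2.26 and 2.44 and rose by 4.80 (SE 0.75, adjusted p = 0.00035). Ccl5, a chemokine of cytotoxic and Th1 cells, was at 5.78, 10.14 and 9.55 against 2.14 and 2.41 and rose by 6.21 (SE 1.27, adjusted p = 0.0039), with array 1 well below the others. The interleukin 18 receptor subunit Il18rap rose by 6.77 and the chemokine receptor Cxcr3 by 7.20.

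Not every gene of that programme differed from naive cells. Prf1, the pore-forming protein of killer cells, was at 10.99, 10.51 and 10.52 against 10.08 and 9.09 (difference 1.09, 95% interval 0.30 to 1.87, adjusted p = 0.065, and 0.44 after quantile normalization). Another probe set of Prf1 gave -3.75, so that gene is uncertain. The granule protease gene Ctsw was at 9.85, 11.11 and 11.03 against 12.35 and 11.43 (difference -1.22, adjusted p = 0.26). It had means of 2.67 and 2.54 in the Tfh groups, so here CXCR5lo PD-1lo cells lay near naive and not near Tfh cells. Klrd1, the CD94 receptor chain, also lay near naive and not near Tfh cells, at 10.16, 11.32 and 10.68 against 11.45 and 9.81, with 2.24 and 2.54 in Tfh cells.

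The killer lectin receptors as a list had 9 of their genes tested and 4 rose. Klrk1, the NKG2D receptor, was at 6.01, 7.05 and 4.99 against 2.13 and 2.21 (rise 3.85, SE 0.37, adjusted p = 1.7e-06), and the inhibitory Klrc1 rose by 4.95. Klrg1, a marker of terminally differentiated effectors, was at 2.40 in array 1 but at 7.18 and 7.24 in arrays 2 and 3, against 2.15 and 2.36. Its rise of 3.35 (adjusted p = 0.025) was lost without CXCR5lo PD-1lo replicate 2 (adjusted p = 0.095) or 3 (0.078) and without naive replicate 1 (0.11) or 2 (0.12). On deposited values 5 genes of the list were called higher, but 3 without naive replicate 2.

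Of 18 helper cytokine and secreted factor genes 8 rose and none fell. Il21, the cytokine by which Tfh cells help B cells, was at 10.85, 9.35 and 8.28 against 2.37 and 2.18 and rose by 7.22 (SE 0.54, adjusted p = 8.9e-08). Its mean was 13.43 in YFP-positive cells, so CXCR5lo PD-1lo cells again lay between. Lif, of the interleukin 6 family, rose by 6.44, Ebi3, a subunit shared by interleukins 27 and 35, by 5.23, and Tnfsf11, the ligand RANKL, by 4.66. Tnf had a smaller rise of 1.63 from a naive mean of 8.93.

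Of 32 transcription factors of helper and effector fates 17 rose and none fell, and 15 did not pass on both scales. On quantile-normalized values alone 1 was called lower. Maf, a driver of Il21 and Il4 transcription, was at 13.81, 14.02 and 13.06 against 7.45 and 6.98 (rise 6.42, SE 0.37, adjusted p = 4.4e-09). Irf4, induced by receptor signalling, was at 13.74, 14.04 and 13.70 against 8.06 and 7.25 (rise 6.17, SE 0.37, adjusted p = 6.6e-09). Its partner Batf rose by 3.08, the aryl hydrocarbon receptor Ahr by 5.68, Ikzf2, the Ikaros family member Helios, by 4.25, and Rora, of the nuclear receptor family, by 3.52. Runx3, which works beside T-bet, was at 12.24, 11.96 and 11.73 against 10.41 and 10.84, and its difference of 1.36 (95% interval -1.81 to 4.52) did not pass.

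Surface receptors of trafficking and adhesion changed in part. Of 20 chemokine receptor and homing genes 7 rose and 1 fell, of 23 integrin and adhesion genes 5 rose and 1 fell (4 were called lower on quantile-normalized values), and of 24 cytokine receptors 4 rose and 1 fell. Besides Ccr2, Cxcr6 and Cxcr3, the receptor Ccr6 rose by 7.82 (12.24, 10.48 and 9.12 against 3.44 and 2.14). Itgae, the CD103 integrin chain that binds epithelium, was at 8.06, 10.42 and 9.36 against 2.23 and 2.92 (rise 6.71, SE 0.49, adjusted p = 6.1e-08), with means of 2.20 and 2.23 in the Tfh groups. Itgb1, the integrin chain shared by many matrix receptors, rose by 5.16. Il2rb, the signalling chain for interleukins 2 and 15, rose by 3.96, and Il4ra, the interleukin 4 receptor, fell by 1.31 (9.58, 9.89 and 10.35 against 11.13 and 11.38, adjusted p = 0.006), a call lost without naive replicate 2 (adjusted p = 0.079). Of the chemokine receptor list 11 genes were called higher on deposited values, but 7 without CXCR5lo PD-1lo replicate 1 or naive replicate 1.

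Of 28 co-stimulatory and inhibitory receptors 12 rose and none fell. Lag3, an inhibitory receptor for MHC class II, was at 10.57, 9.62 and 10.27 against 2.19 and 2.22 (rise 7.95, SE 0.31, adjusted p = 3.2e-11). Ctla4, the brake on CD28, was at 12.86, 13.12 and 13.30 against 8.42 and 8.78 (rise 4.5, SE 0.30, adjusted p = 2.6e-08). Icos, the inducible co-stimulator, rose by 2.29 to a mean of 14.34. Havcr2, which encodes TIM-3, was uneven at 8.20, 6.80 and 4.18 against 2.15 and 2.24 (rise 4.20, SE 0.68, adjusted p = 0.00049).

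The S100, annexin and galectin list had 11 of 23 genes risen and none fallen. Anxa1, a phospholipid-binding protein, was at 11.85, 9.53 and 7.67 against 2.17 and 2.26 (rise 7.47, SE 0.85, adjusted p = 1.2e-05). Anxa2 rose by 6.17, the galectin Lgals3 by 7.39 and Lgals1, already at a mean of 14.11 in naive cells, by 1.44. Of 32 interferon-induced genes 7 rose and none fell, among them Ifitm1, Ifitm2 (rise 7.88), Ifitm3 (7.54), Mx1 (4.07) and Oas1a (3.50). The list median was 0.55, near the 0.46 of all genes. On quantile-normalized values alone 4 other members of the list were called lower.

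**Figure D3:**
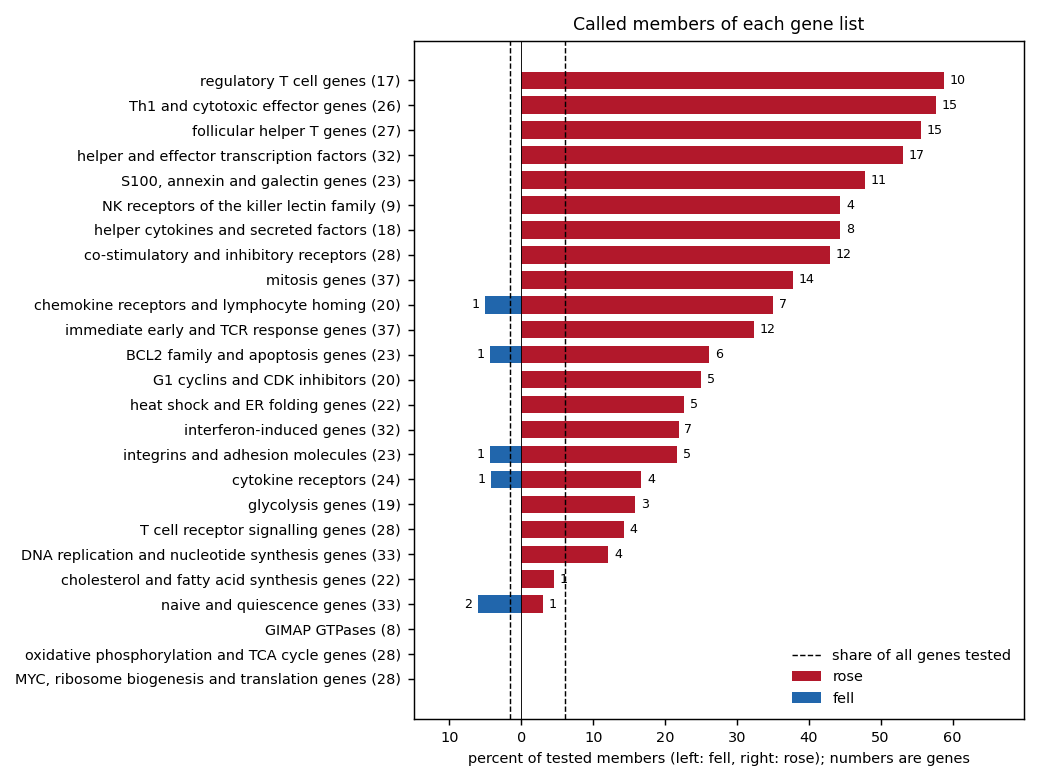
Bars give the percentage of the tested members of each gene list that rose (right, red) or fell (left, blue) on both scales, with the number of genes at the bar and of members tested in brackets; dashed lines mark the 6.09% and 1.55% of all genes. Lists of effector, regulatory and follicular helper genes stand at the top, and lists of ribosome, respiration and GIMAP genes hold no call.

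Some genes of cell division rose, and their levels differed among the CXCR5lo PD-1lo arrays. The median over 37 mitosis genes was 10.41, 7.64 and 6.58 on CXCR5lo PD-1lo arrays 1, 2 and 3 and 3.49 and 4.23 on the naive arrays, so each array lay above both naive arrays. Of these 37 genes 14 rose and none fell. Mki67, the proliferation marker Ki-67, was at 13.10, 11.56 and 10.21 against 3.49 and 4.79 (rise 7.49, SE 0.83, adjusted p = 9.4e-06). Birc5, the mitotic regulator survivin, rose by 5.16 and the condensin gene Ncapg by 5.17.

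The number of mitosis genes called higher on deposited values, 17, was 8 without naive replicate 1 and 12 without naive replicate 2. With CXCR5lo PD-1lo replicate 1 and naive replicate 2 both left out, 8 were called higher on quantile-normalized values. Of 33 DNA replication genes 4 rose, among them Rrm2, a subunit of ribonucleotide reductase, at 14.19, 13.12 and 11.61 against 9.02 and 9.82 (rise 3.55, SE 0.70, adjusted p = 0.003). The replication count of 5 on deposited values was 10 without CXCR5lo PD-1lo replicate 3, 3 without replicate 1, 1 without naive replicate 1 and 2 without naive replicate 2. With the normalization set as a fixed term the median change was 1.28 for the mitosis list, against 3.72 without that term, and -0.51 for the replication list, against 1.06. In that fit only naive array 1 bears on the contrast, linked through Tfh arrays of another day. CXCR5lo PD-1lo array 1 was the highest of the 3 in 366 of the 605 genes that rose, after quantile normalization, against 103 for array 2 and 136 for array 3.

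**Figure D4:**
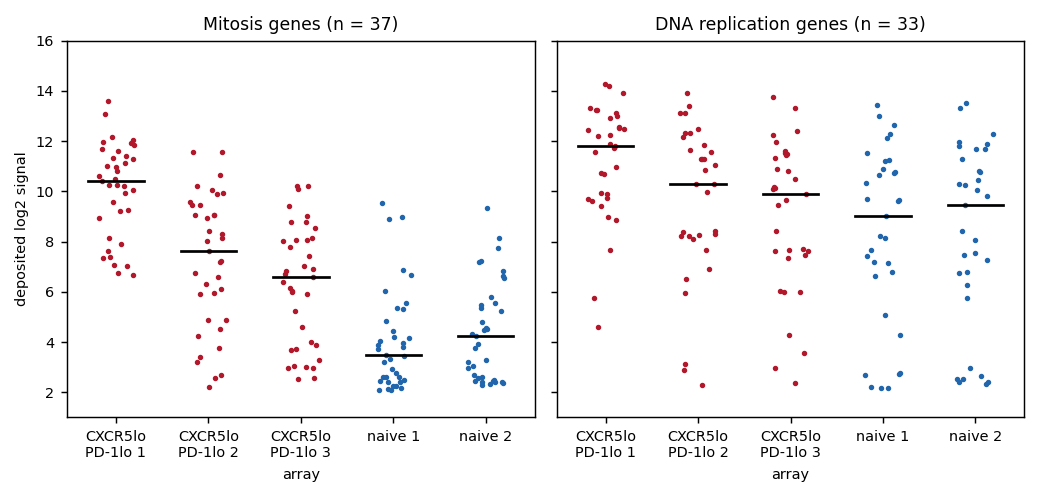
Each point is a gene of the mitosis list (left, 37 genes) or the DNA replication list (right, 33 genes) at its deposited log2 signal on each of the 5 arrays, with a black bar at the median. The mitosis median is 10.41, 7.64 and 6.58 on CXCR5lo PD-1lo arrays 1, 2 and 3 and 3.49 and 4.23 on the naive arrays.

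Most genes of the naive and quiescent state were still bright, with 32 of 33 at log2 8 or more on at least 1 CXCR5lo PD-1lo array. Of 33 tested 1 rose and 2 fell, and their median was -0.12 on deposited and -0.68 on quantile-normalized values, below that of all genes by 0.58 and 0.60. On quantile-normalized values alone 8 of the 33 were called lower, where 7.42% of all genes were. Ccr7 was at 13.42, 13.02 and 12.88 in CXCR5lo PD-1lo and at 13.93 and 12.94 in naive cells (difference -0.33, 95% interval -2.97 to 2.31, adjusted p = 0.87). Il7r, the receptor for the survival cytokine interleukin 7, was at 13.98, 14.29 and 13.63 against 14.50 and 14.21 (difference -0.39, interval -2.22 to 1.44). The values of both genes overlap between the groups.

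Klf2 was at 11.68, 11.49 and 11.47 against 12.02 and 11.55 (difference -0.24, interval -1.49 to 1.01), and its target S1pr1, the exit receptor of lymph nodes, at 10.44, 10.35 and 10.36 against 11.13 and 9.88 (-0.12, interval -1.48 to 1.23). Foxo1 differed by 0.00 (interval -0.64 to 0.64). The intervals are wide because the spread is shared with groups in which these genes vary. They do not show that the levels are equal. The Tfh cells of the study had much less of these transcripts, with YFP-positive and then YFP-negative means of 7.42 and 9.16 for Ccr7, 7.32 and 10.04 for Il7r, 4.89 and 8.56 for Klf2, and 4.83 and 8.16 for S1pr1. Against the mean of these Tfh groups, CXCR5lo PD-1lo cells were higher by 4.81 for Ccr7 (SE 0.92, adjusted p = 0.0022), 5.28 for Il7r (SE 0.64, adjusted p = 2.5e-05), 4.82 for Klf2 (SE 0.44, adjusted p = 8.6e-07) and 3.89 for S1pr1 (SE 0.48, adjusted p = 2.7e-05). That fit did not pair the CXCR5lo PD-1lo arrays with the Tfh arrays normalized with them. Both Tfh groups also include arrays of day 10, whereas the CXCR5lo PD-1lo cells are all of day 7. The median of the sex-linked genes was 2.31 in the YFP-positive and 5.92 in the YFP-negative group. It was 2.19 to 2.26 on the CXCR5lo PD-1lo arrays and 8.70 on naive array 2. Sex may therefore differ in the Tfh comparisons as well, and its part was not tested.

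The near-equal levels depend on how the normalization sets are treated. With the set as a fixed term, only naive array 1 bears on the contrast, and it is linked through Tfh arrays of another day. In that fit Ccr7 differed by -4.70, Klf2 by -2.27, S1pr1 by -2.34, Il7r by 0.24 and Foxo1 by -0.77. The same fit gave a median of 5.86 for the 4 sex-linked genes. Yet naive array 1 and the CXCR5lo PD-1lo arrays had Xist at 13.01 to 13.46 and the Y-linked genes at the floor. That fit thus gives differences which these arrays do not show, and its values are not read as changes here.

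**Figure D5:**
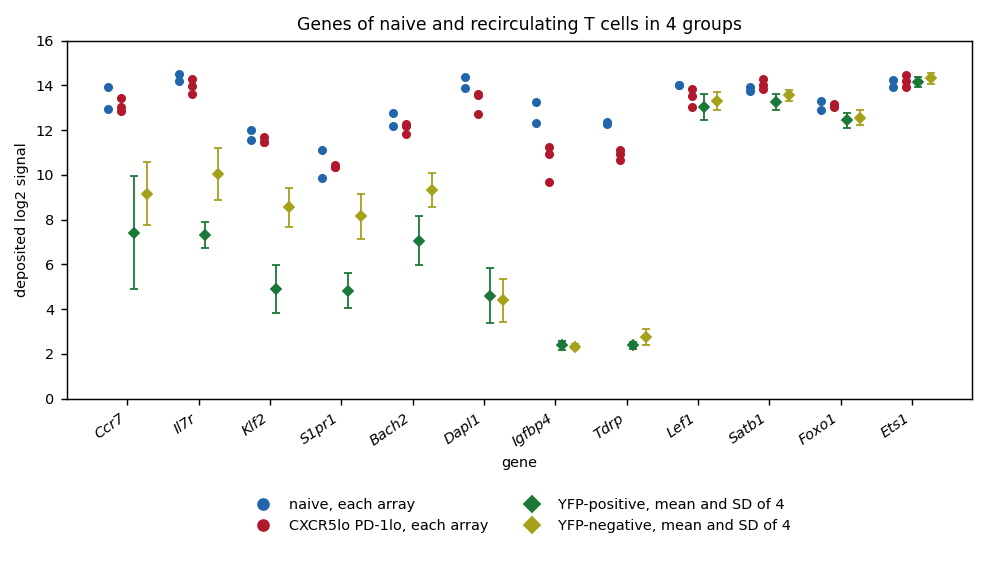
Genes of naive and recirculating T cells are plotted at their deposited log2 signal for each naive array (blue), each CXCR5lo PD-1lo array (red) and as mean and SD of 4 arrays for YFP-positive (green) and YFP-negative (olive) Tfh cells. From Ccr7 to Tdrp the CXCR5lo PD-1lo arrays lie near or somewhat under the naive arrays, except for Igfbp4, where they lie well under them. For these genes they lie far above the Tfh groups, whereas for Satb1 and Ets1 the 4 groups lie close together.

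Other genes of the list lay lower without reaching Tfh levels. Igfbp4, a growth factor binding protein of naive T cells, was at 9.69, 11.27 and 10.93 against 13.26 and 12.33 (difference -2.17, adjusted p = 0.063, and -2.75 with 0.026 after quantile normalization), with 2.38 and 2.33 in Tfh cells. Tdrp was at 10.67, 11.13 and 10.93 against 12.36 and 12.28. The members that fell were Als2cl, by 1.44 (10.99, 11.34 and 11.20 against 12.83 and 12.41, a call lost without naive replicate 1, adjusted p = 0.065), and Ccr9, the gut-homing receptor, by 2.36. Ccr9 lost its call without CXCR5lo PD-1lo replicate 1 (adjusted p = 0.056) or 2 (0.051) and without naive replicate 1 (0.15). The member that rose was Id3, an inhibitor of E proteins, by 2.15 (12.41, 12.57 and 12.45 against 10.63 and 10.03), not called without naive replicate 2 (adjusted p = 0.10).

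The largest decreases were in genes outside the lists. Pdlim4, an actin-associated LIM protein, was at 3.71, 6.03 and 6.2 against 11.93 and 11.59 and fell by 6.44 (SE 0.48, adjusted p = 8.9e-08; -7.29 after quantile normalization). Dntt, the terminal transferase that diversifies receptors in thymocytes, was at 2.13, 4.30 and 3.91 against 10.32 and 7.68 and fell by 5.56 (SE 0.64, adjusted p = 1.5e-05). Ampd1, the AMP deaminase of muscle, was at 2.04, 5.53 and 6.38 against 11.25 and 8.72 and fell by 5.33.

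Others among the 15 were Myo6, an actin motor (-5.88), Dapk1, a death-associated kinase (-5.57), the GABA receptor gene Gabrr2 (-5.41), Rgs11, of the G protein regulators (-5.31), and the alcohol dehydrogenase Adh1 (-4.94). Array 1 was the lowest of the CXCR5lo PD-1lo arrays in 105 of the 154 genes that fell, after quantile normalization. In Tfh cells Pdlim4, Dntt and Ampd1 were at the floor, with means of 2.12, 2.27 and 2.09 in YFP-positive cells. All 15 kept their call when any array was left out.

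Genes of survival and death changed in both directions. Bcl2, the anti-apoptotic protein that interleukin 7 maintains, was at 10.68, 10.86 and 10.69 against 13.06 and 12.76 and fell by 2.17 (SE 0.33, adjusted p = 0.00025; -2.74 after quantile normalization). The inflammatory caspases Casp1 and Casp4 rose by 4.96 and 6.73, the BH3-only gene Pmaip1 by 5.78 and the stress gene Gadd45b by 4.99. Of 23 tested genes of this list 6 rose and 1 fell. The 8 called higher on deposited values became 5 without CXCR5lo PD-1lo replicate 1 and 4 without naive replicate 2.

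Of 37 receptor response genes 12 rose, none fell and 25 did not pass on both scales. Nr4a3, an orphan nuclear receptor, was at 13.08, 13.11 and 12.94 against 9.80 and 10.92 (rise 2.69, SE 0.37, adjusted p = 0.00011), and Rgs1 rose by 3.55. The naive arrays differed from each other here. Fos, an AP-1 subunit, was at 9.98 and 12.61 on naive arrays 1 and 2 and at 13.49, 14.32 and 14.36 in CXCR5lo PD-1lo cells, and its partner Jun at 7.05 and 10.37 against 11.57, 12.20 and 12.36. Hspa1b, a stress-induced chaperone, was at 3.65 and 12.68 on the naive arrays and at 13.14, 13.21 and 13.32 in CXCR5lo PD-1lo cells, which is not a call (adjusted p = 0.056). The 22 members called higher on deposited values became 11 without naive replicate 2. What sets the naive arrays apart in these genes was not tested.

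Most metabolic lists held few calls. None of 28 ribosome and translation genes, 28 respiration and TCA cycle genes or 8 GIMAP genes rose or fell. Of 22 cholesterol and fatty acid genes 1 rose (4.55%), and of 19 glycolysis genes 3 did (15.8%), against 6.09% of all genes. On quantile-normalized values alone 3 glycolysis genes and 1 cholesterol and fatty acid gene were called lower, where 7.42% of all genes were. On deposited values 5 glycolysis genes were called higher, but 2 without CXCR5lo PD-1lo replicate 1 or naive replicate 1, 3 without CXCR5lo PD-1lo replicate 2 and 1 without naive replicate 2. The hexokinase Hk2 stood out at 9.99, 8.33 and 7.99 against 2.70 and 2.71 (rise 6.07, SE 0.78, adjusted p = 4.8e-05), while the lactate dehydrogenase Ldha differed by 0.68 (interval 0.08 to 1.28, adjusted p = 0.13). Of 28 receptor signalling genes 4 rose, and of 22 chaperone and ER folding genes 5 did, among them the ER chaperone Hspa5 by 1.29 and Sdf2l1 by 3.51. The 6 chaperone genes called higher on deposited values became 4 without CXCR5lo PD-1lo replicate 1 and 3 without naive replicate 1. On deposited values 7 receptor signalling genes were called higher, but 2 without CXCR5lo PD-1lo replicate 1 or 2 or either naive array.

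Follicular helper and regulatory T cell genes were also among those that rose, 15 of 27 of the first and 10 of 17 of the second list, and none fell. The first list shares Cxcr5, Pdcd1, Il21, Maf and Icos with lists above. Of the second, Nrp1, a semaphorin receptor, was at 13.62, 13.48 and 13.06 against 7.31 and 8.0 (rise 5.74, SE 0.36, adjusted p = 8.8e-09), and Ikzf2, Ctla4 and Itgae stand in it too. Foxp3, which defines regulatory T cells, did not go with them. It was at 3.38, 3.71 and 5.14 against 5.39 and 8.17 (difference -2.70, adjusted p = 0.08).

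Markers of other cells were mostly absent. Of 15 B cell markers 11 were under log2 4 on all 5 arrays, and so were 15 of 21 myeloid and dendritic, 6 of 9 CD8 T, NK and gamma delta, 13 of 14 stromal and 9 of 9 erythroid and platelet markers. The mean level of the B cell list was 3.60 to 3.73 on the CXCR5lo PD-1lo arrays and 3.41 and 3.53 on the naive arrays. Markers of germinal centre B and plasma cells differed more between the groups. Of 8 such markers 5 were under log2 4 on all 5 arrays, and 3 reached log2 8 on a CXCR5lo PD-1lo array against 1 on a naive array. Their mean level was 5.62, 5.13 and 5.15 on the CXCR5lo PD-1lo arrays and 3.4 and 3.89 on the naive arrays. Immunoglobulin transcripts were among the exceptions. Iglv1, a light chain segment, was at 10.75, 9.60 and 10.14 against 2.13 and 2.13, and Jchain, of antibody-secreting cells, at 10.53, 7.91 and 7.72 against 2.21 and 5.56.

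Neither Iglv1 nor Jchain passed (adjusted p = 0.095 and 0.22). The fit shares its spread with the other groups of the study, so a missing call does not show equal levels. Both genes were higher on every CXCR5lo PD-1lo array than on either naive array, with Iglv1 at 9.6 or more against 2.13. Such separation alone is a weak sign, as it holds in 48% of genes tested on deposited values. Cd74, the invariant chain of antigen presentation, was at 10.51, 9.18 and 8.75 against 5.60 and 5.33 and rose by 4.02 (SE 0.79, adjusted p = 0.003). Cd79b, of the B cell receptor, was at 5.26 to 5.36 against 2.23 and 2.33 and rose by 3.03. The lysozyme genes Lyz1 and Lyz2, of the myeloid list, were at 8.02 and 6.76 on CXCR5lo PD-1lo array 1 and at 2.20 to 2.57 on the others. H2-Ab1 and H2-Aa, of the same list, were also highest on that array, at 4.78 and 3.6 against 2.15 to 2.67 on the others. Cd68, of the myeloid list too, was instead lowest on array 1, at 2.43, 4.60 and 7.29 on CXCR5lo PD-1lo arrays 1, 2 and 3. Cd22, of the B cell list, was at 5.35, 3.37 and 2.84 on these arrays and at 2.2 and 2.22 on the naive arrays. The part of such transcripts in the results was not tested. Of the CD8 T, NK and gamma delta list, Ncr1 and Cd8a were under log2 4 on all 5 arrays. Cd8b1, the other CD8 chain, was at 7.10, 6.69 and 6.43 against 7.59 and 6.06, and Tyrobp and Eomes reached 4.52 and 4.81 on naive array 1 and were under log2 4 on the other arrays. The mean level of that list was 2.85 to 2.93 on the CXCR5lo PD-1lo arrays and 3.34 and 2.80 on the naive arrays. Fas, Ighm, Cd72, Ctss and Pecam1, also markers by these lists, were at log2 9.46 or more on all 5 arrays, naive ones included.

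Sex-linked transcripts split the naive group. Naive array 2 carried the Y-linked genes Eif2s3y, Kdm5d and Uty at 12.89, 10.05 and 7.35 and had Xist at 2.15, whereas the other 4 arrays had Xist at 13.01 to 13.46 and the Y-linked genes at the floor. Naive array 1 is thus the only naive array of the same sex as the CXCR5lo PD-1lo arrays. Without naive array 2, 448 genes were called higher and 126 lower on deposited values, 574 in place of 1185. The total was also lower without naive array 1 (699) and without CXCR5lo PD-1lo array 1 (655). Without CXCR5lo PD-1lo array 1, 440 of the 605 genes that rose and 95 of the 154 that fell were still called, all in the same direction. With only the 5 arrays of the groups, 304 and 53 were. With these quantile-normalized, 183 and 93 were. Compared with leaving out CXCR5lo PD-1lo array 1, fewer of the genes that rose kept their call without naive array 2. Likewise, fewer of those that fell did so without naive array 1. Each of these runs leaves only 1 naive array.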

How the data were processed

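The 19 arrays hold 45101 probe sets as log2 values, deposited by the authors after GCRMA, per the submitters' processing notes. The array values fall into 7 normalization sets, and the naive arrays share none with the CXCR5lo PD-1lo arrays. These sets were inferred from the values, joining arrays whose sorted values differed by under 0.06 on average. The largest such difference within a set was 0.0482 and the smallest between sets 0.0666. Other settings of theirs are unknown here. Array number limits precision. Probe sets with 1 gene symbol (34945; 932 have several and 9160 none) at log2 4 or more on at least 2 arrays were kept, and each of 9930 genes took its probe set with the highest mean. Group means over all 19 arrays were fitted with limma 3.58.1 (R 4.3.3; 13 residual degrees of freedom), with Benjamini-Hochberg adjustment over all genes and 0.05 as threshold. A rise or fall needs that call on deposited and on quantile-normalized values.

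The genes and lists were chosen with earlier results of these data known. Named were the 15 largest changes each way that did not overlap between groups, the sorting and marker genes, up to 5 called members each way per list (for a list with no call, its largest change) and bright markers of other cells. Others, such as Prf1, Ctsw, Klrd1, Runx3, Ldha, Foxp3 and the uncalled naive genes, were chosen after their values were seen. Tcf7, which has no probe set with a single symbol, was not analysed here. Alternatives were other scalings, fits, filters, probe set rules and each array left out.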

Additional observations from a re-analysis of the deposited data

How the results depend on the processing

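The counts of genes called on deposited values (1185, with 1028 higher and 157 lower) depended on the scaling. Higher and lower calls were 635 and 737 after quantile normalization and 666 and 649 on percentile ranks, and 510 were higher of 664 with arrays centred on their medians. With only the 5 arrays they were 347 and 69 (416 in all), and quantile-normalized 199 were higher of 375. With the normalization set as a fixed term 2319 were called (948 lower), and as a random term 2312 (869 lower). Leaving out each array gave 574 to 1151 calls, 448 to 970 higher and 78 to 181 lower. Of the alternatives chosen after seeing the data, centring on the 75th percentile gave 469 and 732, and quantile normalization without CXCR5lo PD-1lo replicate 1 and naive replicate 2 gave 445 and 259 (704 in all). The filters, the probe set mean and the trended fit kept all 3 counts within 1.5 times. Among genes named, Prf1 turned to -1.33 with the mean of its probe sets, and Foxo1 to -0.77 and -0.67 with the set as fixed or random term; the cause was not tested. Of 124 genes followed, 18 lost their call with only the 5 arrays, 29 with these quantile-normalized and 10 on percentile ranks. Of the 30 largest changes 4, 4 and 5 did so, and none under the other alternatives. No paired analysis was possible because the labels number only 1 naive array, as 2; the other was given the number 1 here as a name. Signals near the floor limit the size of folds against naive cells.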
